A study of Mus musculus with 82 samples.

Results

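Genes of sterol synthesis and fatty acid synthesis, with the genes that control these pathways and move sterols in cells, were followed in RNA libraries of transferred mouse T cells. The 34 genes were chosen by symbol and were found in all 3 count tables, out of 21823 genes that the tables share. They fall into 18 genes of sterol synthesis, 9 of fatty acid synthesis, 4 of control and 3 of transport. Levels are given as normalized counts per M of total (CPM, where M is mega), scaled over all 82 libraries together. Differences are log2 fold changes from the quasi-likelihood test of edgeR, and a gene is called changed where the p-value, adjusted by the Benjamini-Hochberg method over all genes tested, is under 0.05.

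The T cells carry transgenic receptors for ovalbumin: OT-II cells belong to the CD4 lineage and OT-I cells to the CD8 lineage, and both were placed into wild-type C57BL/6 recipients. Recipients received pGal-OVA (ovalbumin carrying a synthetic sugar polymer, here pGal), free ovalbumin (OVA, 5 µg) or saline, and transferred cells were sorted 4 days later. The design text states the pGal dose as 5 µg while the treatment protocol states it in molar equivalents of antigen, so doses of pGal and OVA may differ in mass of antigen. In the prophylactic experiment, antigen was given 1 day after transfer and each library pooled 3 mice. It holds 5 pGal, 4 OVA and 5 saline libraries of OT-II cells and 5, 5 and 5 of OT-I cells, in 2 batches. In the therapeutic experiment, ovalbumin in complete Freund's adjuvant had been used to immunize the recipients about a month before treatment, and a library stands for 1 mouse. By label it holds 10 pGal, 8 OVA and 7 saline libraries of OT-II cells and 10 pGal, 10 OVA and 8 saline libraries of OT-I cells. All cells compared here are therefore transferred receptor-transgenic cells, and saline recipients in the therapeutic experiment were immunized too. Beyond the pooled mice, nothing states that libraries of one group were otherwise independent, so p-values measure the spread between these libraries.

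Cholesterol is built from acetyl-CoA through the mevalonate pathway, squalene and lanosterol, while fatty acids are built from the same acetyl-CoA by acetyl-CoA carboxylase and fatty acid synthase and then lengthened and desaturated. Both branches are driven by the SREBP transcription factors, encoded by Srebf1 and Srebf2, which the Scap protein escorts from the endoplasmic reticulum when sterols are low and which Insig1 holds back when sterols are high. Activated T cells are known to raise both branches to make membrane as they divide, and export of sterols by Abca1 and Abcg1 opposes this.

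Promoter windows, from 250 bases before to 50 bases after a gene's start, were read from RefSeq on GRCm38.p6 for 26 of the 34 genes. The 5 shown are those of Hmgcs1, which makes HMG-CoA at the start of the mevalonate pathway and is a textbook SREBP target, and of the 4 sterol genes with a window that changed after pGal in OT-II cells: Lss and Acat2, which fell, and Ebp and Tm7sf2, which rose. Capitals mark matches to the sterol response element core TCACNCCAC and to CCAAT, on either strand (ATTGG is CCAAT read on the other strand), and no match of one overlaps a match of the other here. The windows are chr13:119690101-119690400 on the plus strand for Hmgcs1, chr10:76531355-76531654 on the plus strand for Lss, chr17:12960676-12960975 on the minus strand for Acat2, chrX:8193463-8193762 on the minus strand for Ebp and chr19:6067801-6068100 on the minus strand for Tm7sf2.
Hmgcs1: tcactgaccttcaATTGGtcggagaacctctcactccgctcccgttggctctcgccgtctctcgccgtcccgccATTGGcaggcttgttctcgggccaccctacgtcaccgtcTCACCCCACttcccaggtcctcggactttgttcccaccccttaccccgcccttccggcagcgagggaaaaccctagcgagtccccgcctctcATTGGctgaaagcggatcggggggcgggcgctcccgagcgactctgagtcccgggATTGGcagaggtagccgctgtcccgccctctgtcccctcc
Lss: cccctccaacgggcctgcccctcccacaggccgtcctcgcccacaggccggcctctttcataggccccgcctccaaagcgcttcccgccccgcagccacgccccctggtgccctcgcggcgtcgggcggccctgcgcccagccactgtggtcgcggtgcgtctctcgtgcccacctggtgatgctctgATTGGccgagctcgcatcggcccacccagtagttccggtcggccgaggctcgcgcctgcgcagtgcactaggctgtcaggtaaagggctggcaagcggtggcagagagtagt
Acat2: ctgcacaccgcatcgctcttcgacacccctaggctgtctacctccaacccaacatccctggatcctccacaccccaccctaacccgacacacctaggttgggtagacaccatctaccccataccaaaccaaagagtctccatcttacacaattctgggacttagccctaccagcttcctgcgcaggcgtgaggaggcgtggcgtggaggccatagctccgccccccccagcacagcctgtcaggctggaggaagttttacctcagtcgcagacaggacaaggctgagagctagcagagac
Ebp: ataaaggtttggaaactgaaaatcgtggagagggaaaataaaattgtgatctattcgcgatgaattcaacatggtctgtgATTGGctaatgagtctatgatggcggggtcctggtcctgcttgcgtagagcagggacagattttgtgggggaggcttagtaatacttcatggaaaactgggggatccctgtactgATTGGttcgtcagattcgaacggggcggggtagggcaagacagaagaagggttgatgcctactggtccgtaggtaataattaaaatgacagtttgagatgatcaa
Tm7sf2: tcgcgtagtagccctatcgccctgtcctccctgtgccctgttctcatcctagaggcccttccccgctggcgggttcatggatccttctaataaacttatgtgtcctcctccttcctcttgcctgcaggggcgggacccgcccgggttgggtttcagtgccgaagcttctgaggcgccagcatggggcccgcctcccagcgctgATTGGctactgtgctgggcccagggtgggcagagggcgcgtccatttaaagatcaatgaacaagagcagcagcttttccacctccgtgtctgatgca
The sterol response element core stood in 1 window of the 26 genes, that of Hmgcs1, at -137 from the start, and in 1.24% of 32851 promoter windows of all genes. Some genes have more than 1 window, and the 26 genes have 32. CCAAT stood in 21 of these 32 windows, against 37.41% of all windows, and in those of Lss, Ebp and Tm7sf2 but not of Acat2. The E-box CACGTG stood in 8 of the 32, in 7 of the 26 genes, against 7.15% of all windows. The 2 windows of Scap overlap and hold the same E-box.

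Total estimated counts were 21.15 to 68.23 M per prophylactic library and 22.63 to 62.51 M per therapeutic library. The lineage was checked with the coreceptor genes: Cd4 was the higher in the OT-II libraries and Cd8a in the OT-I libraries, for all 29 prophylactic libraries. Of the 53 therapeutic libraries, 11 had the other one (6 labelled OT-I and 5 labelled OT-II), and the 42 that match were used in the therapeutic comparisons. In 5 prophylactic libraries the B cell gene Cd79a was above 100 CPM: batch 1 pGal 3 (1040 CPM), batch 2 OVA 2 (1370 CPM) and batch 2 saline 1 (161 CPM) of OT-II cells, and batch 2 OVA 2 (101 CPM) and batch 2 saline 1 (318 CPM) of OT-I cells. The summed level of 8 B cell markers was 524 to 6360 CPM in these 5 and 38.9 to 158 CPM in the other 24, and that of 10 myeloid markers 213 to 2470 CPM and 36.3 to 423 CPM. Among the 42 matching therapeutic libraries, Cd79a was above 100 CPM in 5, all of OT-II cells: OVA 2 (110 CPM), pGal 2 (112), pGal 3 (117), pGal 8 (107) and saline 7 (112). The B cell sum was 172 to 755 CPM over the matching libraries. Genes detected were 14074 to 16437 per prophylactic and 13172 to 21312 per therapeutic library, with 7 matching therapeutic libraries above 18000. In 3 prophylactic libraries the coreceptor gene of the other lineage was above 100 CPM: batch 1 pGal 2 (Cd4 at 207 CPM) and batch 1 OVA 1 (162 CPM) of OT-I cells, and batch 2 OVA 2 (Cd8a at 116 CPM) of OT-II cells. In bulk libraries such as these, fewer cells of a type and less RNA per cell cannot be told apart.

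The first question was what each form of antigen did to these genes in CD4 T cells without earlier immunization. In prophylactic OT-II cells, Scd2, a stearoyl-CoA desaturase that puts the double bond into saturated fatty acids, rose after pGal against saline, while 4 enzymes of the sterol branch fell: Sqle (squalene epoxidase), Lss (lanosterol synthase), Acat2 (the thiolase that joins acetyl-CoA units at the head of the mevalonate pathway) and Fdps (farnesyl diphosphate synthase). Fads1, a desaturase of polyunsaturated fatty acids, fell as well, and Tm7sf2 and Ebp, a reductase and an isomerase of the late sterol steps, rose. These are 8 called genes of 34, 3 higher and 5 lower, in a comparison in which 11.7% of all 14128 genes tested were called, 6.37% higher and 5.34% lower.

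**Figure D1:**
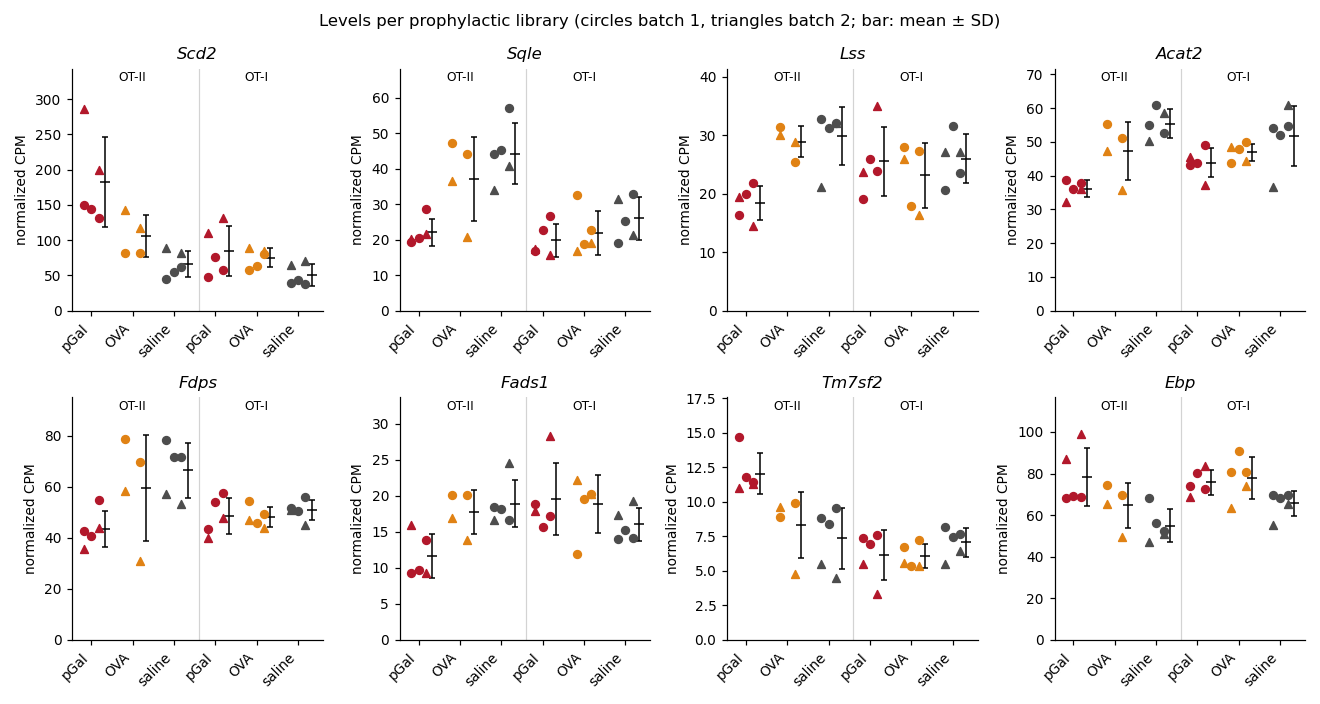
Normalized CPM of 8 genes in each prophylactic library (circles batch 1, triangles batch 2), with pGal left of OVA and saline for OT-II and OT-I cells; bars give the mean ± SD of each group. In OT-II cells the 5 pGal libraries lie at 132 to 286 CPM for Scd2 and 19.3 to 28.6 CPM for Sqle, and the 5 saline libraries at 44.7 to 88.8 CPM and 33.9 to 57.2 CPM.

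Scd2 (chr19:44293674-44306864, plus strand, GRCm38) stood at 150, 144 and 132 CPM in batch 1 and 286 and 199 CPM in batch 2 after pGal in OT-II cells. After OVA it stood at 82.4 and 81.6 CPM in batch 1 and 143 and 117 CPM in batch 2, and after saline at 44.7, 54.5 and 61.6 CPM in batch 1 and 88.8 and 81.3 CPM in batch 2. Within each batch every pGal library lay above every OVA library, and every OVA library above every saline library. The log2 fold change was 1.42 (SE 0.12, adjusted p = 1.28e-05) for pGal against saline and 0.83 (SE 0.12, adjusted p = 0.00766) for pGal against OVA. For OVA against saline it was 0.60 (SE 0.12, adjusted p = 0.107), which missed the threshold.

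Sqle (chr15:59315077-59331192, plus strand) stood at 19.3, 20.6 and 28.6 CPM in batch 1 and 20.1 and 21.6 CPM in batch 2 after pGal, against 44.2, 45.2 and 57.2 CPM in batch 1 and 33.9 and 40.7 CPM in batch 2 after saline. The groups did not overlap, and the highest pGal library was batch 1 pGal 3, the one with the most B cell RNA of its group. The log2 fold change was -1.01 (SE 0.17, adjusted p = 0.00235). After OVA, Sqle stood at 47.2 and 44.2 CPM in batch 1 and 36.6 and 20.7 CPM in batch 2, the lowest being batch 2 OVA 2, which is rich in B cell RNA. Against OVA, pGal gave -0.76 (SE 0.18, adjusted p = 0.0502), which missed the threshold.

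Lss (chr10:76531588-76557138, plus strand) stood at 16.4, 19.9 and 21.8 CPM in batch 1 and 19.4 and 14.5 CPM in batch 2 after pGal. After OVA it stood at 31.5 and 25.4 CPM in batch 1 and 30 and 28.9 CPM in batch 2, and after saline at 32.8, 31.2 and 32.1 CPM in batch 1 and 21.1 and 32.2 CPM in batch 2. All 5 pGal libraries lay below all 4 OVA libraries, and 1 saline library, batch 2 saline 1, lay among the pGal libraries. The log2 fold change was -0.69 (SE 0.16, adjusted p = 0.0407) against OVA and -0.72 (SE 0.15, adjusted p = 0.00658) against saline. The call against OVA was lost in 11 of 14 fits that left out 1 library, with an adjusted p of up to 0.143.

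Acat2 (chr17:12942890-12960747, minus strand) stood at 38.7, 35.9 and 37.9 CPM in batch 1 and 32.3 and 36 CPM in batch 2 after pGal, against 54.9, 60.8 and 52.5 CPM in batch 1 and 50.3 and 58.6 CPM in batch 2 after saline. No pGal library reached a saline library, and the log2 fold change was -0.64 (SE 0.10, adjusted p = 0.00148). Of its words of 31 bases, 50.54% are shared with Acat3, which held 0 to 109 counts per library, so reads of the pair may be split. Fdps (chr3:89093588-89101959, minus strand) averaged 43.5 ± 7.13 CPM after pGal, 59.4 ± 20.8 CPM after OVA and 66.5 ± 10.7 CPM after saline (SD, n = 5, 4 and 5). Its fold change against saline was -0.62 (SE 0.16, adjusted p = 0.0242), and the groups overlapped in 1 library each, batch 1 pGal 3 (54.8 CPM) and batch 2 saline 2 (53.2 CPM). Fdps shares 78.99% of its words with the overlapping gene model Gm43738, which held 0 to 48 counts.

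Fads1 (chr19:10182888-10196877, plus strand) stood at 9.29, 9.71 and 13.8 CPM in batch 1 and 15.9 and 9.3 CPM in batch 2 after pGal, against 18.5, 18.2 and 16.6 CPM in batch 1 and 16.7 and 24.6 CPM in batch 2 after saline. The groups did not overlap (log2 fold change -0.73, SE 0.20, adjusted p = 0.0301). Tm7sf2 (chr19:6062821-6068373, minus strand) averaged 12.0 ± 1.49 CPM after pGal, 8.29 ± 2.39 CPM after OVA and 7.35 ± 2.23 CPM after saline. It was above every saline library in all 5 pGal libraries (0.73, SE 0.21, adjusted p = 0.0383), and it overlaps Vps51 on the same strand. Ebp (chrX:8185329-8193512, minus strand) averaged 78.4 ± 13.9 CPM after pGal, 64.6 ± 11.0 CPM after OVA and 55.0 ± 8.12 CPM after saline (0.49, SE 0.15, adjusted p = 0.0469). Its change was 0.17 in batch 1 alone and 0.90 in batch 2 alone, and that of Tm7sf2 was 0.45 and 1.14.

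The calls of Scd2, Sqle, Lss and Acat2 against saline held in all 14 fits that left out 1 library. Those of Fdps, Fads1, Tm7sf2 and Ebp were lost in 6, 5, 10 and 11 of the 14, with adjusted p of up to 0.0744, 0.0793, 0.104 and 0.142. The number of genes called was 4 without batch 1 pGal 1, batch 1 pGal 2 or batch 1 saline 2 and 10 without batch 1 pGal 3.

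**Figure D2:**
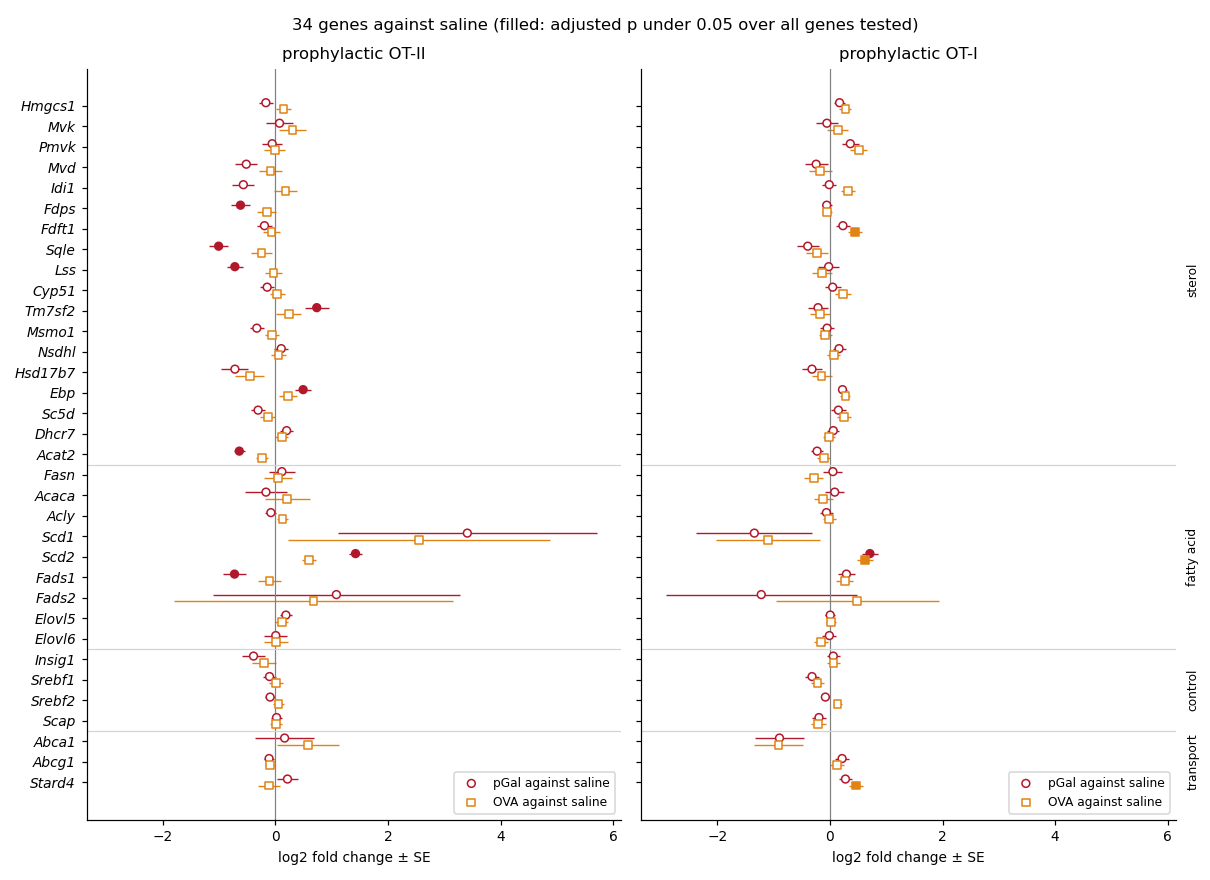
Log2 fold change ± SE of all 34 genes against saline in prophylactic OT-II cells and OT-I cells, pGal and OVA side by side; filled points are called at an adjusted p under 0.05. In OT-II cells 8 genes are filled after pGal and 0 after OVA, and in OT-I cells 1 after pGal and 3 after OVA.

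By branch, 13 of the 18 sterol genes had a negative and 5 a positive change after pGal against saline in OT-II cells, with a median of -0.25, against 0.04 over all genes tested. Of these, 4 fell and 2 rose by the test. Among those that missed the threshold, Idi1, an isomerase of the mevalonate pathway, had -0.57 (adjusted p = 0.076) and Hsd17b7, a late reductase, -0.72 (adjusted p = 0.0719). Of the 9 fatty acid genes, 6 were positive and 3 negative (median 0.11), with Scd2 higher and Fads1 lower. None of the 4 control genes or 3 transport genes was called: Srebf2 averaged 323 ± 30.8 CPM after pGal and 341 ± 52.3 CPM after saline, Insig1 28.1 ± 8.18 CPM after pGal and 36.3 ± 5.8 CPM after saline, and Abcg1 90.5 ± 14.6 CPM after pGal and 96.1 ± 15.8 CPM after saline.

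B cell RNA varied between the libraries of this comparison. The 8 B cell markers summed to 38.9 to 3420 CPM in the 5 pGal libraries of OT-II cells, 63.0 to 6360 CPM in the 4 OVA libraries and 48.7 to 674 CPM in the 5 saline libraries, and none of the 8 was at 0 in any of them. The median sum was 63.2 CPM after pGal, 78.3 CPM after OVA and 109 CPM after saline. Among the pGal libraries, batch 1 pGal 3 held 3420 CPM and the others 38.9 to 63.5 CPM. The median fitted change of these markers was 3.07 for pGal against saline, with none called, although the median pGal library held less than the median saline library. With the B-cell-rich libraries left out, 9 genes of the 34 passed against saline, in a fit that called 14.7% of all genes: Ebp was lost (adjusted p = 0.074), Idi1 (-0.80) and Hsd17b7 (-0.91) were gained, Scd2 stood at 1.46 and Sqle at -1.18. Lss then stood at -0.90, Fdps at -0.71 and Acat2 at -0.68, so that all 4 sterol decreases were at least as large without those libraries.

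The direct comparison of pGal with OVA in OT-II cells called 2 genes of 34, where 1.87% of all genes were called (1.11% higher, 0.757% lower): Scd2 higher and Lss lower. Of the 18 sterol genes 14 were negative and 4 positive (median -0.25, against -0.01 over all genes), and 9 of the 34 had an unadjusted p under 0.05. With the B-cell-rich libraries left out, batch 2 OVA 2 among them, 7 passed, while the share of all genes called also grew, to 4.22%: Scd2 (0.80) higher and Sqle (-1.05), Idi1 (-0.94), Fads1 (-0.87), Lss (-0.74), Fdps (-0.72) and Acat2 (-0.52) lower. The count was 4 without batch 2 OVA 2 alone or batch 1 pGal 3 alone, 1 without batch 1 OVA 2 and 5 by DESeq2. Comparisons of pGal with OVA and with saline share the pGal libraries, so they are not independent of each other.

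OVA against saline called none of the 34 by edgeR, where 0.163% of all genes were called. DESeq2 called Scd2 alone, and 1 of the 34 had an unadjusted p under 0.05. After Scd2, the smallest p-values were those of Acat2 (-0.23, SE 0.11, adjusted p = 0.686) and Hsd17b7 (-0.46, SE 0.26, adjusted p = 0.742). The sterol median was -0.02, with 8 positive and 10 negative.

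Genes of the neighbouring pathways were counted from lists. After pGal against saline in OT-II cells, 3 of 15 fatty acid oxidation genes rose and 1 fell, where 6.37% of all genes tested were higher and 5.34% lower. Read against that share, a single call in a list of 10 to 15 genes, as in some lists here, is near the background. Decr1, an auxiliary enzyme for oxidizing unsaturated fatty acids, averaged 42.2 ± 13.3 CPM after pGal, 16.9 ± 6.3 CPM after OVA and 9.77 ± 1.86 CPM after saline (log2 fold change against saline 2.05, SE 0.24, adjusted p = 0.000134). Acss2, which makes acetyl-CoA from acetate, averaged 54.6 ± 7.95 CPM after pGal, 93.6 ± 28.1 CPM after OVA and 120 ± 9.77 CPM after saline (-1.18, SE 0.13, adjusted p = 9.44e-05). Both were also called for pGal against OVA, Decr1 at 1.35 (adjusted p = 0.0148) and Acss2 at -0.81 (adjusted p = 0.00888).

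Of 13 tested genes of acyl-CoA supply and elongation, Acss2 and Acsl3, an acyl-CoA synthetase, fell and none rose. Of 13 tested genes of uptake, storage and esters, Soat1, which makes cholesteryl esters, rose: it averaged 71.5 ± 1.94 CPM after pGal and 44.0 ± 6.45 CPM after saline (0.68, SE 0.16, adjusted p = 0.0137). Of 10 genes of nuclear receptors and SREBP processing, Rxra, the partner of the oxysterol receptors, rose (2.30, SE 0.52, adjusted p = 0.0128) and Mylip, which targets lipoprotein receptors for degradation, fell (-0.78, SE 0.23, adjusted p = 0.0406). Proliferation genes rose beside them, 5 of 8, including Mki67 (2.43) and Top2a (2.23), and their part in the result was not tested.

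In CD8 T cells of the same experiment fewer of these genes were called. After pGal against saline in prophylactic OT-I cells only Scd2 was called among the 34, as higher, where 3.35% of all genes were called and 2.64% were higher. It stood at 48.1, 76.6 and 57.2 CPM in batch 1 and 110 and 131 CPM in batch 2 after pGal, against 39.4, 43.3 and 37.4 CPM in batch 1 and 65.4 and 69.9 CPM in batch 2 after saline. The groups did not overlap within a batch (log2 fold change 0.71, SE 0.14, adjusted p = 0.0157). Without batch 2 pGal 2 the adjusted p was 0.0602.

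After OVA against saline in OT-I cells 3 of the 34 rose, where 5.39% of all genes were called and 4.12% were higher. Scd2 stood at 57.6, 64 and 80.7 CPM in batch 1 and 88.4 and 84.5 CPM in batch 2 after OVA (0.63, SE 0.14, adjusted p = 0.0162, and 0.0567 without batch 1 OVA 2). Fdft1, squalene synthase, stood at 32.5, 36.8 and 31.6 CPM in batch 1 and 31.7 and 28.4 CPM in batch 2 after OVA, against 21.4, 24.3 and 23.4 CPM in batch 1 and 23.3 and 28.4 CPM in batch 2 after saline. The groups met at 28.4 CPM (0.45, SE 0.12, adjusted p = 0.0431). Stard4, which carries sterols between membranes, stood at 19.4, 22.6 and 16.7 CPM in batch 1 and 29.9 and 26.8 CPM in batch 2 after OVA, against 17, 15.1 and 18.5 CPM in batch 1 and 16.2 and 17.4 CPM in batch 2 after saline. All but 1 of the OVA libraries lay above all saline libraries (0.47, SE 0.12, adjusted p = 0.0374). In the 15 fits that left out 1 library, Fdft1 lost its call in 11 (adjusted p up to 0.159) and Stard4 in 7 (up to 0.123), and the number of genes called ranged from 0 (without batch 1 OVA 2, for example) to 4. With the 2 B-cell-rich OT-I libraries left out, only Scd2 passed, 1 gene of the 34, and 3.52% of all genes were called.

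The sterol branch had a median of -0.02 after pGal and 0.02 after OVA in OT-I cells, against -0.003 and -0.001 over all genes. Sqle averaged 19.9 ± 4.6 CPM after pGal, 21.9 ± 6.26 CPM after OVA and 26.0 ± 6.12 CPM after saline, and Lss 25.5 ± 5.86 CPM after pGal, 23.1 ± 5.47 after OVA and 26.0 ± 4.12 CPM after saline. In the direct comparison of pGal with OVA in OT-I cells edgeR and DESeq2 called none of the 34, as edgeR called none of all 13802 genes (0%), and 2 had an unadjusted p under 0.05. The smallest p-values were those of Srebf2 (-0.22, SE 0.07), Idi1 (-0.33, SE 0.12) and Fasn (0.34, SE 0.17), all with an adjusted p of 1. Proliferation genes rose in OT-I cells too, 6 of 8 after pGal and 7 of 8 after OVA against saline.

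Whether the change after pGal itself differed between OT-II and OT-I cells was tested with an interaction term. It called 1 gene of 34, Fads1, as lower, where 1.17% of all 14845 genes were called and 0.431% were lower. Fads1 averaged 11.6 ± 3.06 CPM after pGal and 18.9 ± 3.31 CPM after saline in OT-II cells, and 19.6 ± 5.01 CPM after pGal and 16.0 ± 2.29 CPM after saline in OT-I cells (interaction -1.02, SE 0.26, adjusted p = 0.0457). The call was lost in 20 of 29 fits that left out 1 library, with an adjusted p of up to 0.112. Scd2 had an interaction of 0.72 (SE 0.19, adjusted p = 0.053), Tm7sf2 of 0.95 (SE 0.26, adjusted p = 0.0723), Lss of -0.70 (SE 0.24, adjusted p = 0.202) and Sqle of -0.61 (SE 0.27, adjusted p = 0.358).

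Of the 18 sterol genes 14 were negative in this interaction and 4 positive, with a median of -0.37, against 0.02 over all genes. The 8 B cell markers had a median of 4.69 in the same term. With the B-cell-rich libraries left out, 4 genes passed, in a fit that called 2.41% of all genes: Fads1 (-1.19), Lss (-0.89), Fdps (-0.69) and Scd2 (0.76). For OVA, edgeR and DESeq2 called none of the 34 (0.0337% of all genes called by edgeR), with 4 at an unadjusted p under 0.05, and the smallest p-values were those of Stard4 (-0.55, SE 0.22), Fdft1 (-0.50, SE 0.22) and Pmvk (-0.50, SE 0.23), a kinase of the mevalonate pathway, with adjusted p of 0.571, 0.644 and 0.649.

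**Figure D3:**
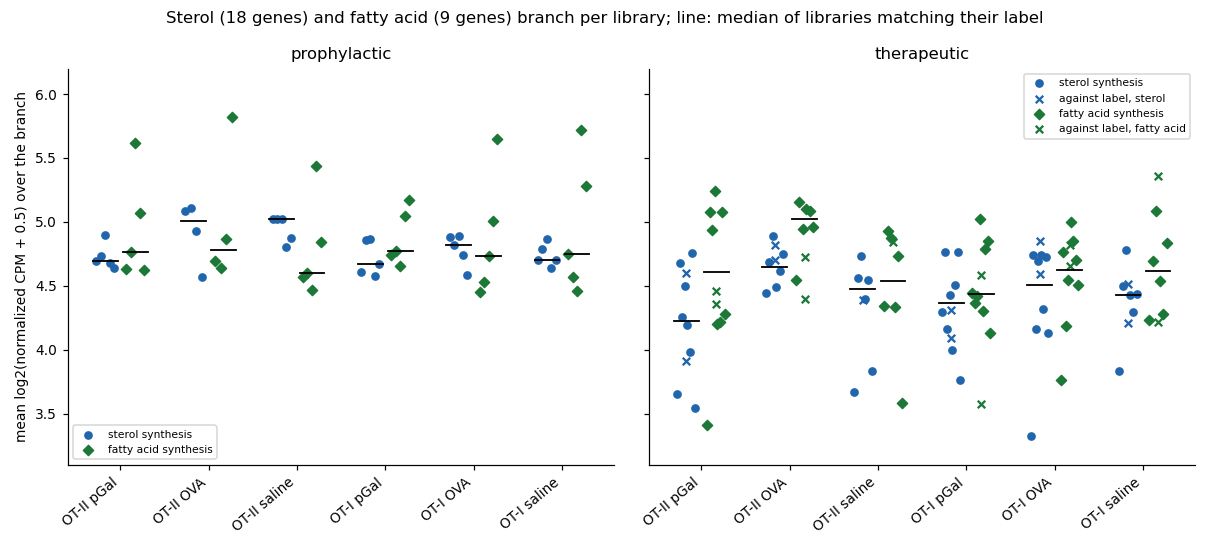
Mean log2(CPM + 0.5) of the 18 sterol genes and of the 9 fatty acid genes in every library of both experiments, by group, with pGal left of OVA and saline; crosses mark libraries whose coreceptor genes go against the label and lines the median of the matching ones. In prophylactic OT-II cells the sterol median is 4.70 after pGal, 5.01 after OVA and 5.02 after saline, and in therapeutic OT-II cells it is 4.22, 4.65 and 4.47 after the same treatments.

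Averaged over a branch within a library, on the log2(CPM + 0.5) scale, the sterol genes of prophylactic OT-II cells had a median of 4.70 after pGal (4.64 to 4.90), 5.01 after OVA (4.57 to 5.11) and 5.02 after saline (4.81 to 5.03). The highest pGal library was batch 1 pGal 3 and the lowest OVA library batch 2 OVA 2, both rich in B cell transcripts. In OT-I cells the medians were 4.67 after pGal, 4.82 after OVA and 4.70 after saline. The fatty acid branch had medians of 4.77 after pGal, 4.78 after OVA and 4.60 after saline in OT-II cells, and of 4.77, 4.73 and 4.75 after the same treatments in OT-I cells. Without Scd1 those of OT-II cells were 5.10 after pGal, 5.13 after OVA and 4.89 after saline. The medians of OT-II cells pool 2 batches in unequal shares, with 2 and 2 OVA libraries but 3 and 2 saline libraries. With Scd1, the fatty acid branch of batch 1 stood at 4.64 and 4.69 after OVA and 4.47 to 4.60 after saline. In batch 2 it stood at 4.86 and 5.82 after OVA and 4.84 and 5.43 after saline, the higher of each in a B-cell-rich library.

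Scd1, a desaturase of the same family as Scd2, was high in the libraries rich in B cell RNA. It stood at 37.9 to 567 CPM in the 5 libraries with Cd79a above 100 CPM and at 0.44 to 12.7 CPM in the other 24. Scd2 stood at 65.4 to 132 CPM in those 5 and 37.4 to 286 CPM in the other 24, and its change after pGal in OT-II cells was as large without those libraries. Of the words of 31 bases of Scd1 and Scd2, 8.12% and 6.29% are shared with other genes, mostly Scd3, which held 3 to 191 counts.

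**Figure D4:**
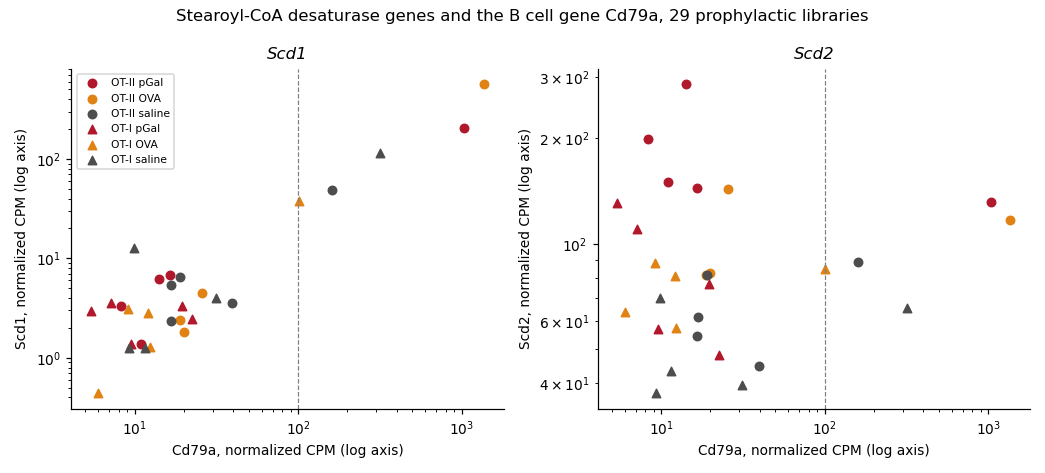
Scd1 and Scd2 against Cd79a in the 29 prophylactic libraries, normalized CPM on log axes, with a dashed line at 100 CPM of Cd79a. Scd1 is at 37.9 to 567 CPM right of the line and 0.44 to 12.7 CPM left of it, while Scd2 spans 65.4 to 132 CPM and 37.4 to 286 CPM.

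Some groups of Fasn and Abca1 differed between the batches. Fasn, fatty acid synthase, stood at 116, 87.1 and 136 CPM in batch 1 and 143 and 115 CPM in batch 2 after pGal in OT-II cells, against 68.6, 75.8 and 73.7 CPM in batch 1 and 238 and 181 CPM in batch 2 after saline. The saline libraries of batch 1 lay below all pGal libraries and those of batch 2 above them, and Fasn was not called. Its log2 fold change was 0.59 in batch 1 alone and -0.71 in batch 2 alone. Abca1, which exports sterols, stood at 18.8, 21.7 and 15.1 CPM in batch 1 and 62.9 and 64.6 CPM in batch 2 after saline, and reached 195 CPM in batch 2 OVA 2. After pGal the batches of OT-II cells were close, with Abca1 at a mean of 29.8 CPM in batch 1 and 33.7 CPM in batch 2. Hmgcs1 was not called: it averaged 52.2 ± 8.37 CPM after pGal, 63.1 ± 8.8 CPM after OVA and 57.3 ± 5.93 CPM after saline.

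Deviations from group and batch means described how far genes moved together. Between sterol genes the median Pearson correlation over 153 pairs was 0.28 in the 14 prophylactic OT-II libraries and -0.07 in the 11 of them not rich in B cell transcripts. Over 144 pairs of a sterol and a fatty acid gene it was 0.08 and -0.01. In prophylactic OT-I cells the sterol median was 0.13 over 15 libraries and 0.27 over the 13 not rich in B cell transcripts. In therapeutic cells it was 0.34 (20 OT-II libraries) and 0.35 (22 OT-I libraries). With the B-cell-rich libraries included, the gene most like Sqle was Fdps in both prophylactic cell types (r = 0.80 and 0.71). The gene most like Scd1 was Abca1 in prophylactic OT-II cells (r = 0.86). In therapeutic cells the gene most like Sqle was Srebf2 in OT-II cells (r = 0.88) and Sc5d in OT-I cells (r = 0.77). A library left alone in its group and batch, as in batch 2 without the B-cell-rich libraries, has a deviation of 0 for every gene. Libraries share their depth and composition across genes, so these values only describe.

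The next question was how the 2 cell types differed with no antigen. In prophylactic saline libraries, OT-I cells had less RNA of several sterol genes than OT-II cells: 11 of the 34 were called, 9 lower and 2 higher, where 18.1% of all 14845 genes were called, 8.12% lower and 10% higher. Lower in OT-I cells were Srebf2, Insig1, Sqle, Cyp51, Fdft1, Sc5d, Msmo1, Abcg1 and Scd2. Higher were Elovl5, an elongase of polyunsaturated fatty acids, and Scap.

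Srebf2 stood at 238, 255 and 266 CPM in batch 1 and 255 and 212 CPM in batch 2 of OT-I saline libraries, against 359, 375 and 380 CPM in batch 1 and 340 and 252 CPM in batch 2 of OT-II saline libraries. They overlapped only through 1 OT-II library (log2 fold change -0.49, SE 0.08, adjusted p = 0.000112). Insig1 stood at 18.9, 22.5 and 25.5 CPM in batch 1 and 21.2 and 23.6 CPM in batch 2 of OT-I cells, against 30.7, 33.8 and 32.1 CPM in batch 1 and 41.8 and 43.3 CPM in batch 2 of OT-II cells. No library overlapped (-0.72, SE 0.16, adjusted p = 0.00213). Cyp51, which demethylates lanosterol, averaged 33.4 ± 6.19 CPM in OT-I cells and 52.8 ± 4.08 CPM in OT-II cells, again with no overlap (-0.68, SE 0.13, adjusted p = 0.000544). Sqle averaged 26.0 ± 6.12 CPM in OT-I cells and 44.2 ± 8.5 CPM in OT-II cells (-0.76, SE 0.19, adjusted p = 0.00507).

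Sc5d and squalene synthase were lower in OT-I cells too. Sc5d, a late desaturase of the ring, averaged 38.8 ± 6.46 CPM in OT-I cells and 53.8 ± 5.74 CPM in OT-II cells (-0.50, SE 0.13, adjusted p = 0.00697), and Fdft1 24.2 ± 2.61 CPM in OT-I cells and 35.8 ± 4.84 CPM in OT-II cells (-0.58, SE 0.15, adjusted p = 0.00895). Other late sterol genes were not called and lay on both sides. Ebp (65.7 CPM in OT-I, 55.0 CPM in OT-II cells), Nsdhl (20.6 and 19.4 CPM) and Dhcr7 (52.9 and 51.3 CPM) averaged higher in OT-I cells. Tm7sf2 (7.05 and 7.35 CPM) and Hsd17b7 (10.5 and 12.1 CPM) averaged lower. Abcg1, a sterol exporter, averaged 66.7 ± 4.99 CPM in OT-I cells and 96.1 ± 15.8 CPM in OT-II cells (-0.53, SE 0.11, adjusted p = 0.00103). Elovl5 stood at 278, 309 and 320 CPM in batch 1 and 254 and 255 CPM in batch 2 of OT-I cells, against 220, 216 and 204 CPM in batch 1 and 208 and 215 CPM in batch 2 of OT-II cells. All OT-I libraries were higher (0.39, SE 0.10, adjusted p = 0.00606). The median change was -0.21 over the sterol genes and 0.25 over the fatty acid genes, against -0.02 over all genes. Proliferation genes were higher in OT-I cells, 4 of 8 called, and their part in the result was not tested.

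In therapeutic saline libraries (6 of each cell type) none of the 34 was called between OT-I and OT-II cells by edgeR or DESeq2, where edgeR called 9% of all 15747 genes, and 4 had an unadjusted p under 0.05. Both cell types were transferred together, so libraries of OT-I and OT-II cells may come from the same mice, and the fits treat them as unpaired. With the number in the label as a block, 3 were called where 11.4% of all genes were: Srebf1 (0.77) and Elovl5 (1.08) higher and Fdft1 (-0.68) lower in OT-I cells. In the unpaired fit the smallest p-values were those of Fdft1 (-0.58, SE 0.22, adjusted p = 0.103), Elovl5 (0.75, SE 0.31, adjusted p = 0.135) and Fdps (-0.44, SE 0.20, adjusted p = 0.19). Fdft1 averaged 23.3 ± 6.57 CPM in OT-I cells and 35.0 ± 13.1 CPM in OT-II cells, and Elovl5 173 ± 28.9 CPM in OT-I cells and 104 ± 50.9 CPM in OT-II cells. Srebf2 averaged 156 ± 40.1 CPM in OT-I cells and 164 ± 69.1 CPM in OT-II cells, a difference within the spread of either group. The sterol median was 0.11, against -0.21 in the prophylactic libraries, and whether the experiments differ in this was not tested.

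The last question was whether antigen changed these genes in cells of previously immunized mice. None of the 34 was called by edgeR in any of the 6 therapeutic comparisons between treatments. The share of all genes called was 0% for pGal against OVA in OT-II and OT-I cells and for pGal against saline in OT-I cells, 0.00702% for pGal against saline in OT-II cells, and 1.54% and 0.686% for OVA against saline in OT-II and OT-I cells. DESeq2 called 1, Dhcr7 for OVA against saline in OT-II cells, and none in the other 5. Between 1 and 4 of the 34 had an unadjusted p under 0.05 in each.

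Dhcr7, the last reductase on the way to cholesterol, stood nearest to the threshold. In therapeutic OT-II cells its lowest, median and highest levels were 18.3, 23.2 and 51.2 CPM after pGal (8 libraries), 33.3, 44.0 and 46.6 CPM after OVA (6) and 12.3, 22.3 and 27.6 CPM after saline (6). OVA and saline libraries did not overlap (log2 fold change 0.96, SE 0.25, adjusted p = 0.0508). For Scd2 they were 42.2, 86.9 and 173 CPM with pGal, 70.5, 155 and 194 CPM with OVA and 21.5, 72.1 and 126 CPM with saline. The groups overlapped (OVA against saline 1.05, SE 0.38, adjusted p = 0.178). Srebf2 averaged 168 ± 68.9 CPM after pGal, 272 ± 28.9 CPM after OVA and 164 ± 69.1 CPM after saline (OVA against saline 0.72, SE 0.31, adjusted p = 0.264).

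For pGal against OVA in therapeutic OT-II cells, 30 of the 34 were negative and 4 positive, with a median of -0.31, against 0.07 over all genes. The smallest p-values were those of Srebf2 (-0.69, SE 0.29), Dhcr7 (-0.48, SE 0.23) and Ebp (-0.42, SE 0.24), all with an adjusted p of 0.672. Markers of other cells differed in this comparison, in both directions. Positive were 10 of 10 myeloid markers with a median of 1.00, 4 of 4 NK markers with 0.97 and 3 of 3 tested stroma markers with 1.153. Of 8 B cell markers 7 were positive (median 0.402), while all 4 tested erythroid and platelet markers were negative (median -0.483). None of these markers was called. The myeloid sum was 43.1 to 253 CPM after pGal, 45.8 to 112 CPM after OVA and 49.7 to 211 CPM after saline, the NK sum 12.7 to 44.1 CPM after pGal and 4.46 to 17.2 CPM after OVA, and the stroma sum 145 to 232 CPM after pGal and 170 to 216 CPM after OVA. Their part in the result was not tested. For OVA against saline 26 were positive and 8 negative (median 0.22, against -0.07), and these comparisons share the OVA libraries. For pGal against saline 17 were positive and 17 negative, and the smallest p-values were those of Mvd (-0.89, SE 0.30, adjusted p = 0.331), a decarboxylase of the mevalonate pathway, of Fads2 (adjusted p = 0.42) and of Dhcr7 (0.48, SE 0.23, adjusted p = 0.56).

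Cd4 varied as well among the 20 matching therapeutic OT-II libraries. Its lowest, median and highest levels were 237, 926 and 1390 CPM with pGal, 936, 1220 and 1320 CPM with OVA and 332, 824 and 1070 CPM with saline. The mean log2 level of the sterol branch was 3.55, 4.22 and 4.76 after pGal, 4.44, 4.65 and 4.89 after OVA and 3.67, 4.47 and 4.73 after saline. For both, pGal and saline libraries reached far below all OVA libraries. The lowest median was the one after saline for Cd4 and the one after pGal for the sterol branch. Whether the levels moved together across libraries, and the part of the Cd4 level in the differences, was not tested.

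In therapeutic OT-I cells the smallest p-values for pGal against OVA were those of Fads1 (-0.70, SE 0.29), Cyp51 (-0.57, SE 0.32) and Srebf2 (-0.32, SE 0.18), all with an adjusted p of 1. For pGal against saline they were those of Scap (-0.34, SE 0.15, adjusted p = 0.734), Srebf1 (-0.41, SE 0.18, adjusted p = 0.734) and Fasn (-0.59, SE 0.28, adjusted p = 0.746). For OVA against saline they were those of Elovl6 (-0.75, SE 0.26, adjusted p = 0.199), which lengthens palmitate, Ebp (0.31, SE 0.13, adjusted p = 0.318) and Fads1 (0.74, SE 0.32, adjusted p = 0.323). Elovl6 averaged 11.8 ± 4.07 CPM after OVA and 19.4 ± 8.53 CPM after saline (SD, n = 8 and 6). Sterol branch medians were 4.36 after pGal, 4.51 after OVA and 4.43 after saline, and the groups overlapped. All 34 genes passed the filter on low counts in the other fits, and 33 did in therapeutic OT-I cells, where Fads2 was left out.

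Between experiments the levels can only be set side by side, since immunization, pooling, cell handling and table all differ and cannot be told apart. After saline in OT-II cells, Srebf2 lay at 58.7 to 259 CPM in therapeutic libraries and 252 to 380 CPM in prophylactic ones, Abcg1 at 27.8 to 55.8 CPM in therapeutic and 81.4 to 122 CPM in prophylactic ones, and Hmgcs1 at 8.73 to 41.6 CPM in therapeutic and 52.2 to 66.9 CPM in prophylactic ones. Insig1 lay at 2.44 to 38.5 CPM in therapeutic and 30.7 to 43.3 CPM in prophylactic libraries, Sqle at 5.58 to 33.1 CPM in therapeutic and 33.9 to 57.2 CPM in prophylactic ones, and Lss at 6.06 to 34.1 CPM in therapeutic and 21.1 to 32.8 CPM in prophylactic ones. Therapeutic levels reached lower for all 6 genes, and the ranges of Abcg1, Hmgcs1 and Sqle did not overlap.

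Among the control genes, Srebf2 and Insig1 had higher medians in OT-II cells than in OT-I cells, while in the prophylactic experiment Srebf1 and Scap had higher medians in OT-I cells. In prophylactic OT-II cells the median of Srebf2 was 318 CPM after pGal, 348 CPM after OVA and 359 CPM after saline, and in OT-I cells it was 237 CPM after pGal, 261 CPM after OVA and 255 CPM after saline. Therapeutic medians were 204 CPM after pGal, 263 CPM after OVA and 172 CPM after saline in OT-II cells, and 157, 178 and 148 CPM after the same treatments in OT-I cells. Insig1, which retains the SREBP escort when sterols are high, had medians of 28.9, 31.3 and 33.8 CPM in prophylactic OT-II cells and 23.4, 24 and 22.5 CPM in OT-I cells after pGal, OVA and saline. In therapeutic cells Insig1 stood at 16.6, 20.6 and 17 CPM in OT-II cells and 11.3, 14.9 and 8.92 CPM in OT-I cells after the same treatments. Srebf2 and Insig1 thus had the higher median in OT-II cells after each treatment, and in every group the therapeutic median was below the prophylactic one.

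Among enzymes, the medians of Sqle in OT-I cells were 17.3 CPM after pGal, 19 CPM after OVA and 25.3 CPM after saline in the prophylactic experiment, and 15.5, 16.8 and 17 CPM after the same treatments in the therapeutic one. Therapeutic OT-II cells had Sqle at 14.7 CPM after pGal, 20.8 CPM after OVA and 22 CPM after saline. The pGal median was the lowest of its 3 treatments in all 4 sets of groups, of which prophylactic OT-II cells alone had a call. In the other 3 sets pGal and saline libraries overlapped. The order also depended on the measure: in therapeutic OT-I cells the mean of Sqle was 16 ± 7.45 CPM after pGal and 15.8 ± 5.11 CPM after OVA. Scd2 had medians of 64.4 CPM after pGal, 71.2 CPM after OVA and 40.8 CPM after saline in therapeutic OT-I cells, with the saline median the lowest there as in the other 3 sets. The exporter Abca1 had medians of 20.9 CPM after pGal, 34.4 CPM after OVA and 21.7 CPM after saline in prophylactic OT-II cells, and 7.25, 6 and 8.66 CPM after the same treatments in OT-I cells. After the same treatments in therapeutic cells it had 20.9, 9.14 and 14.8 CPM in OT-II cells and 6.83, 5.49 and 9.76 CPM in OT-I cells, again higher in OT-II cells after each treatment. In batch 1 of prophylactic OT-II cells Abca1 averaged 17.6 CPM after OVA and 18.5 CPM after saline. In batch 2 it stood at 50.1 and 195 CPM after OVA, the latter in a B-cell-rich library, and at 62.9 and 64.6 CPM after saline. The OVA median of 34.4 CPM thus lies between the batches.

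For the other genes followed in every group, therapeutic medians of Hmgcs1 were 32.5 CPM after pGal, 43.1 CPM after OVA and 33.2 CPM after saline in OT-II cells, and 29.2, 41.7 and 36.8 CPM after the same treatments in OT-I cells. The OVA median of Hmgcs1 was the highest in both cell types, with no call. Lss had medians of 18.5 CPM after pGal, 20.2 CPM after OVA and 21.8 CPM after saline in therapeutic OT-II cells, and 24.3, 24.6 and 30.3 CPM after the same treatments in OT-I cells. In the fatty acid branch, therapeutic medians of Fasn were 87.1 CPM after pGal, 106 CPM after OVA and 98.5 CPM after saline in OT-II cells, and 87, 89.2 and 103 CPM in OT-I cells. Lss and Fasn thus had their lowest therapeutic median after pGal in both cell types. Scd1 had therapeutic medians of 11.6, 15.9 and 17 CPM in OT-II cells and 11.7, 7.77 and 6.82 CPM in OT-I cells after pGal, OVA and saline, and Abcg1 had 37.3, 41.4 and 40 CPM in OT-II cells and 38.8, 46.7 and 42.8 CPM in OT-I cells.

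Compared between genes per kilobase of the longest coding transcript, Acly (ATP citrate lyase, which supplies the acetyl-CoA) was the highest of the 34 in prophylactic OT-II saline libraries at 84.0 ± 17.6 CPM per kb. Elovl5 (76.4 ± 2.32) and Srebf2 (67.2 ± 10.3 CPM per kb) followed, and the 3 did not differ beyond their spread. In prophylactic OT-I saline libraries Elovl5 (102 ± 10.9 CPM per kb) and Acly (92.8 ± 28.1 CPM per kb) led, and did not differ beyond their spread. Fads2, a desaturase of polyunsaturated fatty acids, was the lowest in both, at 0.0755 and 0.139 CPM per kb. It did not exceed 2.66 CPM in any prophylactic library, so its fold changes carry little information.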

How the data were processed

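The 3 deposited tables hold estimated counts per gene. The authors ran bcl2fastq and kallisto 0.46.1 against GRCm38, according to the submitters' processing notes. Neither the summing of transcripts to genes nor the rounding nor the use of strand is stated in the sources read. The 34 genes, the other lists and the tests were chosen with earlier results of these data known.

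Counts were filtered with filterByExpr, scaled by TMM and fitted with robust quasi-likelihood in edgeR 4.0.16 (R 4.3.3), over all genes, with a batch term in the prophylactic experiment. Alternatives used DESeq2 1.42.0, other scaling and fewer libraries. Therapeutic fits kept the 42 libraries whose Cd4 and Cd8a match the label. Branch means used log2(CPM + 0.5). Named in a comparison were the called genes, at most 8 by smallest p, or the 3 smallest p where none was called. The fits were also run on simulated counts with a set mean level for each gene and set changes after pGal. The simulation held no batch differences and no libraries rich in B cell transcripts, so it cannot tell how these bear on the calls. Amplified reads are not independent molecules, so spread between libraries, not depth, sets the precision. Coordinates are from GENCODE M21 and promoters from RefSeq, both GRCm38. No pair of libraries among 3321 was identical.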

Additional observations from a re-analysis of the deposited data

Results flagged for a closer look

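A library was singled out where its gap to the nearest other library of its group, relative to the range of the group, passed the 95% critical value of Dixon's test. This occurred 20 times in 180 groups, on 12 of the 15 genes examined, and chance alone marks about 1 group in 20. Scd1 was marked in 5 groups at 207 CPM (OT-II batch 1 pGal 3), 567 CPM (OT-II batch 2 OVA 2), 49.3 CPM (OT-II batch 2 saline 1), 37.9 CPM (OT-I batch 2 OVA 2) and 114 CPM (OT-I batch 2 saline 1), the 5 prophylactic libraries with Cd79a above 100 CPM. Sqle at 28.6 CPM in OT-II batch 1 pGal 3 and Lss at 21.1 CPM in OT-II batch 2 saline 1 were in such libraries too.

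Other marked values in prophylactic libraries were Fads1 at 28.3 CPM (OT-I batch 2 pGal 2), 11.9 CPM (OT-I batch 1 OVA 1) and 24.6 CPM (OT-II batch 2 saline 2), Tm7sf2 at 14.7 CPM (OT-II batch 1 pGal 1) and Hmgcs1 at 47.6 CPM (OT-I batch 1 OVA 1). In therapeutic libraries they were Fdps at 14.7 CPM (OT-II pGal 9) and 20.2 CPM (OT-I saline 1), Ebp at 54.0 CPM (OT-II OVA 4) and 22.0 CPM (OT-II saline 1), Abca1 at 37.2 CPM (OT-II OVA 2), Srebf2 at 331 CPM (OT-II OVA 3), and Insig1 at 27.7 CPM and Scd2 at 155 CPM in OT-I saline 4.

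The change of Fads1 after pGal against saline differed between OT-II and OT-I cells by the interaction term, at -1.02 on the log2 scale (edgeR adjusted p = 0.0457), with 5 of 5 OT-II pGal libraries below all 5 OT-II saline libraries.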

How the results depend on the processing

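Counts of the 34 genes called depended on the libraries kept. For pGal against OVA in prophylactic OT-II cells (2 called) they were 4 in batch 1 alone, 0 in batch 2 alone, 5 by DESeq2, 7 without libraries rich in B cell transcripts, 4 without those with the other coreceptor gene above 100 CPM and 7 without both kinds, an alternative chosen after the data were seen. For pGal against saline (8) batch 2 alone gave 0, and for OVA against saline (0) DESeq2 gave 1. In prophylactic OT-I cells, OVA against saline (3) gave 0 in batch 2 alone, 1 without the filter, 1 without either kind of library and 0 without both, and pGal against saline (1) gave 0 in batch 1 alone and 0 without both. The interaction for pGal (1) gave 0 in batch 1 alone, 0 in batch 2 alone and 0 without the filter, 3 by DESeq2, 2 with RLE scaling, 4 without libraries rich in B cell transcripts, 2 without those with the other coreceptor gene and 4 without both. OT-I against OT-II saline cells (11) gave 2 in batch 2 alone, and therapeutic OT-II OVA against saline (0) gave 1 by DESeq2. The causes were not tested, other than that a batch alone holds fewer libraries.

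Leaving out 1 library at a time gave 1 to 4 and 4 to 10 called for pGal against OVA and saline in OT-II cells, 0 to 1 and 0 to 4 for pGal and OVA against saline in OT-I cells, 9 to 13 between saline cell types, 0 to 3 for the interaction for pGal and 0 to 0 elsewhere. Among the changes of the genes named in each comparison, 1 turned: Fasn for pGal against OVA in OT-I cells was -0.02 (-0.015) in batch 2 alone. Using all therapeutic libraries as labelled moved no call. With the replicate number as a block, pGal against saline in OT-II cells gave 4 called, pGal against OVA 1, OVA against saline in OT-I cells 1 and the interaction 0, and therapeutic saline cell types gained 3. This block joined same-numbered libraries across treatments, except in the therapeutic saline comparison, where it joined OT-I and OT-II libraries within a treatment. A pairing of cell types within a treatment was thus not fitted in the prophylactic experiment. Whether the numbers pair libraries is not stated. Same-numbered libraries across treatments had mean correlations of -0.086, 0.032, -0.029 and -0.011. Between OT-I and OT-II libraries of 1 treatment they were 0.228 in the therapeutic experiment (14 of 19 above 0.1, against -0.024 for different numbers) and 0.14 in the prophylactic one (8 of 14, against -0.088), and 5 numbers go against the label in both cell types. The unpaired fits were kept because not every pair was above 0.1. That rule cannot decide whether OT-I and OT-II libraries of 1 number come from the same mice, so pairing remains possible.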
